A study of Homo sapiens with 15 samples.

Results

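Glycolysis and hypoxia response genes are 39 genes picked by symbol, all of them found among the 60558 genes of the TPM table, each in 1 row. They comprise 20 genes of the response to low oxygen and 19 genes of glycolysis and lactate production. TPM is the share of a gene's transcripts among all transcripts, a level scaled for transcript length and library size. The cells are RPE1-hTERT, an established human retinal pigment epithelial line immortalized with telomerase, carrying the doxycycline-inducible pINDUCER20-CCNE1 construct, so the control cells carried the construct too. By the study's text the lines were grown from single cells, so the results describe clonal populations. The 15 libraries are 3 each from control cells without doxycycline, acute cells with 20 ng/ml doxycycline for 2 d, crisis cells (15, 18 and 18 d by their labels), adapted cells (39, 41 and 51 d by theirs) and recovery cells. The recovery cultures had 31, 42 and 46 d of doxycycline by their labels and were then kept without it for 18, 46 and 17 d. Some of the labelled crisis and adapted times are longer than those the study's text names for these groups. The 46 d without doxycycline of recovery 2 is also longer than the text names for recovery. No label gives a low-oxygen or glucose treatment for any library.

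When oxygen is plentiful, prolyl hydroxylases mark the alpha subunits of hypoxia-inducible factor (HIF) for destruction by the VHL ubiquitin ligase. At low oxygen the alpha subunits HIF1A and EPAS1 escape, pair with ARNT and raise the transcription of genes for glucose uptake, glycolysis, lactate production, mitochondrial restraint, collagen folding and new vessels. Glycolysis splits glucose into pyruvate, and its enzymes are among the most abundant messages of proliferating cells. Much of HIF control acts on protein stability, which RNA-seq does not measure.

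No gene of this group passed the test for a difference between groups. Of the 39, 34 had a mean of at least 5 TPM and were tested. Of the 34, 0 passed an adjusted p of 0.01 (limma with Benjamini-Hochberg adjustment over all 10196 tested genes). This held in each of 6 comparisons and in the test across the 5 groups. Few genes of any kind passed, 0.0196% to 0.0687% of all tested genes in these tests. ALDOA came nearest, with a mean of 876 TPM in control cells, 622 TPM in adapted cells and 637 TPM in recovery cells. Among the tested genes HIF1A, EPAS1, VEGFA, PDK1, P4HA1 and PLOD2 had the highest recovery means relative to control, 1.45 to 1.57 times the control mean. Without recovery 3 these ratios were 1.26 for HIF1A, 1.66 for EPAS1, 1.3 for VEGFA, 1.36 for PDK1, 1.27 for P4HA1 and 1.2 for PLOD2. GC correction, described below, took the log2 fold change from 0.54 to 0.28 for HIF1A and from 0.57 to 0.35 for PDK1. For P4HA1 it went from 0.51 to 0.27 and for PLOD2 from 0.59 to 0.30. EPAS1 went from 0.59 to 0.61 and VEGFA from 0.60 to 0.64. Of the other oxygen-response genes, SLC2A1 was at 0.993, P4HA2 at 1.09 and BNIP3 at 1.1 times the control mean. The 17 glycolytic and lactate dehydrogenase messages together made up 1.9% of all TPM in control cells (SD 0.0839, n = 3) and 1.84% in recovery cells (SD 0.0173, n = 3). Positions given with a gene are those of GENCODE release 44 on hg38, and TPM covers its exons. By the study's text, replicates came from separate adaptations begun at different times.

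The libraries differ in ways that touch these results. CCNE1 itself had means of 7.08 TPM in control, 151 TPM in acute, 38.9 TPM in crisis, 42.8 TPM in adapted and 5.65 TPM in recovery cells, so the induced groups were the high ones. Each library's log2 level minus the average over all 15 was correlated, across genes, with gene GC content, and Spearman's rho ran from -0.577 to 0.722, and it was below 0 in all 3 adapted and all 3 recovery libraries but above 0 in 2 of 3 control libraries. Values after GC correction, in which each library's trend on GC content was removed, are given beside the main ones for most of the differences named. Shares of summed TPM were not corrected. Library recovery 3 had the highest value of the 15 for 23.3% of the tested genes. Of 15 genes fixed as markers of retinal pigment epithelium, 6 had a median of at least 1 TPM, among them MITF, OTX2 and KRT8, while RPE65 was at 0 TPM in every library. Markers of endothelium summed to at most 1.07 TPM. Of 8 fibroblast markers 4 had a median over 1 TPM. THY1 had the largest median of the 8, with 284 to 403 TPM. COL1A2, COL3A1, DCN and LUM reached at most 0.264, 0.0984, 1.08 and 0.795 TPM. Of 5 leukocyte markers PTPRC and CD3E were at most 0.177 and 0 TPM while CD68 was at 44.1 to 73.9 TPM, and the control libraries held 63.6 to 74.3 TPM of the 5 summed, against 44.2 to 67.7 TPM elsewhere. Of 6 neuronal and photoreceptor markers SYT1 was at 27.2 to 62.8 TPM and SNAP25 at 5.09 to 10.5 TPM. The 8 fibroblast markers summed to between 456 and 480 TPM in control, 396 and 436 TPM in acute, 414 and 493 TPM in crisis, 380 and 396 TPM in adapted and 426 and 521 TPM in recovery libraries, so acute and adapted libraries lay wholly below control. The part of these markers in the results was not tested. Fewer cells of a type and less RNA per cell cannot be told apart in such bulk RNA.

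The promoters of the genes were read from RefSeq (GRCh38.p14), as windows of 300 bases from 250 before to 50 after the start, and 35 of the 39 genes matched. The core of the hypoxia response element was searched as ACGTG or GCGTG on both strands, so that CACGT and CACGC also count. ACGTG lies inside the palindrome CACGTG, the E-box that other factors bind. Of the 35 genes, 32 (91.4%) held a match in at least 1 of their windows, against 52.4% of all 27305 genes with a window. Genes with several starts have several windows. Among genes with 1 window, 21 of 24 matched (87.5%), against 47.3% of all such genes. Neither background was matched for expression or GC content, and the genes were picked for their known roles. The difference was not tested. The 4 windows here are printed as sense-strand sequence, with each match in capitals. PLOD2 and P4HA1 had their highest value in recovery 3, and PFKL and GPI had lower means in adapted cells than in control cells.
PLOD2, chr3:146161135-146161434, minus strand: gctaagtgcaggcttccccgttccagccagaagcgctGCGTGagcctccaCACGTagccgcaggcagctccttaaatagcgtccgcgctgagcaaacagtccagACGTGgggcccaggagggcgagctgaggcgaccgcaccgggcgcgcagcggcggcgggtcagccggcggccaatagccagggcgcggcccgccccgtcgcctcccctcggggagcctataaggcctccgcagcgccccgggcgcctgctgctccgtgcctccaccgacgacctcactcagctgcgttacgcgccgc
P4HA1, chr10:73096817-73097116, minus strand: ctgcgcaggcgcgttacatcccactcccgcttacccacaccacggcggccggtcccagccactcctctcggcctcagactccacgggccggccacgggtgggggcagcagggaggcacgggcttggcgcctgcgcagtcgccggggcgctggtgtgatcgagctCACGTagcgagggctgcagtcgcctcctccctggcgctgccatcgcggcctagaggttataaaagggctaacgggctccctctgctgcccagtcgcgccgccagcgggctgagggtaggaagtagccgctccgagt
PFKL, chr21:44299803-44300102, plus strand: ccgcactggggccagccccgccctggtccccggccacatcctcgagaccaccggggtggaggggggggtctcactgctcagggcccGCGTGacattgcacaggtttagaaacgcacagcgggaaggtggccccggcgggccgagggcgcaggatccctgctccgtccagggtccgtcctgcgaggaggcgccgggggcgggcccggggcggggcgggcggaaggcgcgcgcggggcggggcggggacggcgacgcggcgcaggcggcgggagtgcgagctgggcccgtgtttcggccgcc
GPI, chr19:34364742-34365041, plus strand: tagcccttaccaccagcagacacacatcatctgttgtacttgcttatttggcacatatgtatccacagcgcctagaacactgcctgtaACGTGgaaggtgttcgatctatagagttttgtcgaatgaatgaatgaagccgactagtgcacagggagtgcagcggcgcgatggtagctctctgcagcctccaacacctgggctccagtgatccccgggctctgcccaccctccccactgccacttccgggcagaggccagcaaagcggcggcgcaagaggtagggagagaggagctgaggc
PLOD2 held 3 matches, and P4HA1, PFKL and GPI held 1 each. With a match in 91.4% of the genes, these 4 windows cannot tell genes with higher means from genes with lower means. A match is a run of letters and not a shown binding site.

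The oxygen-regulated factors and their hydroxylases open the account by role. HIF1A (chr14:61695513-61748259), the alpha subunit of HIF-1, read 244, 254 and 328 TPM in control, 352, 312 and 299 TPM in acute, 342, 322 and 395 TPM in crisis, 289.8, 333 and 349.5 TPM in adapted and 322, 373 and 522 TPM in recovery libraries. Recovery 3 was far above every other library, and recovery 1 lay below control 3, so the groups overlapped. Recovery minus control came to 0.54 on the log2 scale (SE 0.15, adjusted p = 0.0672), 0.34 without recovery 3 (adjusted p = 0.251) and 0.28 after GC correction (adjusted p = 0.203). HIF1A transcripts are poor in GC (38.9%).

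EPAS1, the alpha subunit of HIF-2, was the lower of the pair and took 3.3% to 6.7% of their summed TPM. EPAS1 (chr2:46293667-46386697) read 14.8, 11.9 and 13.8 TPM in control, 14.6, 13.1 and 16.5 TPM in acute, 24.6, 20.7 and 19.8 TPM in crisis, 13.5, 16.5 and 23.8 TPM in adapted and 22.2, 22.5 and 17.8 TPM in recovery libraries. All crisis and all recovery libraries lay above all control libraries, while adapted libraries spanned both ranges. Against control it differed by 0.65 on the log2 scale in crisis (SE 0.16, adjusted p = 0.187) and by 0.59 in recovery (SE 0.16, adjusted p = 0.0672). For EPAS1 the recovery value was 0.69 without recovery 3 and 0.61 after GC correction, so it was as large in both, and the crisis value was 0.59 after GC correction.

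EGLN1, the main prolyl hydroxylase acting on HIF alpha, had means of 37.5 TPM in control and 49.4 TPM in recovery cells (SD 4.66 and 6.32, n = 3 each), with no overlap between those 2 groups. Its log2 fold change of 0.39 (adjusted p = 0.0938) was 0.17 after GC correction. EGLN3, a hydroxylase that is itself a strong HIF target, was at 0.0879 TPM or less in every library and was not tested.

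Of the 4 secreted and cell-surface HIF targets tested, VEGFA had the largest ratio of the highest to the lowest library, 2.4. VEGFA (chr6:43770184-43786487), the growth factor for blood vessels, read 69.0, 52.4 and 60.5 TPM in control, 83.0, 56.3 and 67.3 TPM in acute, 69.8, 109.7 and 72.6 TPM in crisis, 71.9, 60.6 and 68.1 TPM in adapted and 72.4, 84.8 and 126 TPM in recovery libraries. All recovery and all crisis libraries were above the highest control, with recovery 3 and crisis 2 far above the rest. Recovery against control gave 0.60 on the log2 scale (SE 0.19, adjusted p = 0.0876), 0.37 without recovery 3 and 0.64 after GC correction.

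ADM, which encodes the vasodilator adrenomedullin, had means of 32.3 TPM in control and 38.5 TPM in recovery cells, with a log2 fold change of 0.25 (adjusted p = 0.163) that was 0.38 after GC correction (adjusted p = 0.0622). SLC2A1, the basal glucose transporter GLUT1, ranged from 171.5 to 249 TPM with a control mean of 201.5 TPM, and its recovery libraries spanned that whole range. SLC2A3, the high-affinity transporter GLUT3, ranged from 9.94 to 15.7 TPM and took 4.39% to 8.04% of the summed TPM of both, highest in adapted 1. The carbonic anhydrases CA9 and CA12, which buffer pH at the cell surface, reached at most 2.19 and 0.568 TPM and were not tested. CA9 and EGLN3 are classical hypoxia markers. The highest CA9 value of the 15 libraries was in control 1, but at such low levels no direction is read from either gene.

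Targets that act on mitochondria included PDK1, the kinase that keeps pyruvate out of the citric acid cycle. PDK1 (chr2:172555373-172608669) read 8.61, 7.48 and 11.1 TPM in control, 11.8, 13.7 and 10.9 TPM in acute, 13.3, 11.6 and 13.5 TPM in crisis, 11.3, 13.5 and 9.96 TPM in adapted and 14.0, 10.6 and 17.6 TPM in recovery libraries. Crisis libraries all lay above control, while the other 3 groups overlapped it. The PDK1 log2 fold changes against control were 0.40 in acute (adjusted p = 0.514), 0.47 in crisis (adjusted p = 0.327), 0.33 in adapted (adjusted p = 0.27) and 0.57 in recovery (adjusted p = 0.0738). After GC correction these were 0.26, 0.36, 0.16 and 0.35.

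BNIP3 and BNIP3L are receptors that hand mitochondria to autophagy. BNIP3 ranged from 43.1 to 62.2 TPM, with 39 pseudogene entries that reached 11.8% of its level, so its value is less certain than others. BNIP3L had a control mean of 78.8 TPM and a recovery mean of 101 TPM (SD 4.02 and 19.7, n = 3 each) without overlap. Its log2 fold change of 0.34 (adjusted p = 0.0902) was 0.19 without recovery 3 and 0.14 after GC correction.

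The collagen-modifying targets held the widest range of all tested members. PLOD2 (chr3:146035139-146163725), a lysyl hydroxylase that prepares collagen for cross-linking, read 169, 171.5 and 228.5 TPM in control, 215, 175.5 and 175 TPM in acute, 206, 195 and 277 TPM in crisis, 178, 217 and 209 TPM in adapted and 222, 232 and 439.5 TPM in recovery libraries. Recovery 3 was 1.94 times the mean of the other 2 recovery libraries, and those 2 stood next to control 3. In recovery against control the log2 fold change was 0.59 (SE 0.21, adjusted p = 0.0983), 0.27 without recovery 3 and 0.30 after GC correction. PLOD2 has the lowest GC content of the tested genes in the group, 37%.

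P4HA1 (chr10:73007217-73096974), a catalytic subunit of collagen prolyl 4-hydroxylase, read 42.5, 46.4 and 58.7 TPM in control, 51.4, 49.1 and 51.1 TPM in acute, 67.4, 46.8 and 73.7 TPM in crisis, 52.8, 60.9 and 62.5 TPM in adapted and 56.0, 69.0 and 88.9 TPM in recovery libraries. Recovery 3 was again the highest, and each group overlapped control. For P4HA1 the log2 fold change in recovery against control was 0.51 (SE 0.17, adjusted p = 0.0878), 0.34 without recovery 3 and 0.27 after GC correction. The related subunit P4HA2 had means of 37.8 TPM in control, 32.8 TPM in adapted and 41.3 TPM in recovery cells, and all its recovery libraries were above all adapted ones (log2 fold change 0.32, adjusted p = 0.479, and 0.28 after GC correction).

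Of the other intracellular targets, NDRG1, a stress-response gene, ranged from 8.81 to 21.5 TPM, lowest in adapted 2. KDM3A, a histone demethylase, ranged from 16.8 to 32.1 TPM and BHLHE40, a transcriptional repressor, from 9.95 to 20.1 TPM. BHLHE40 had a log2 fold change of 0.33 in recovery against control (adjusted p = 0.173), 0.19 without recovery 3 and 0.32 after GC correction. ANKRD37 was below the limit for testing, with a control mean of 2.96 TPM and a recovery mean of 4.28 TPM.

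**Figure D1:**
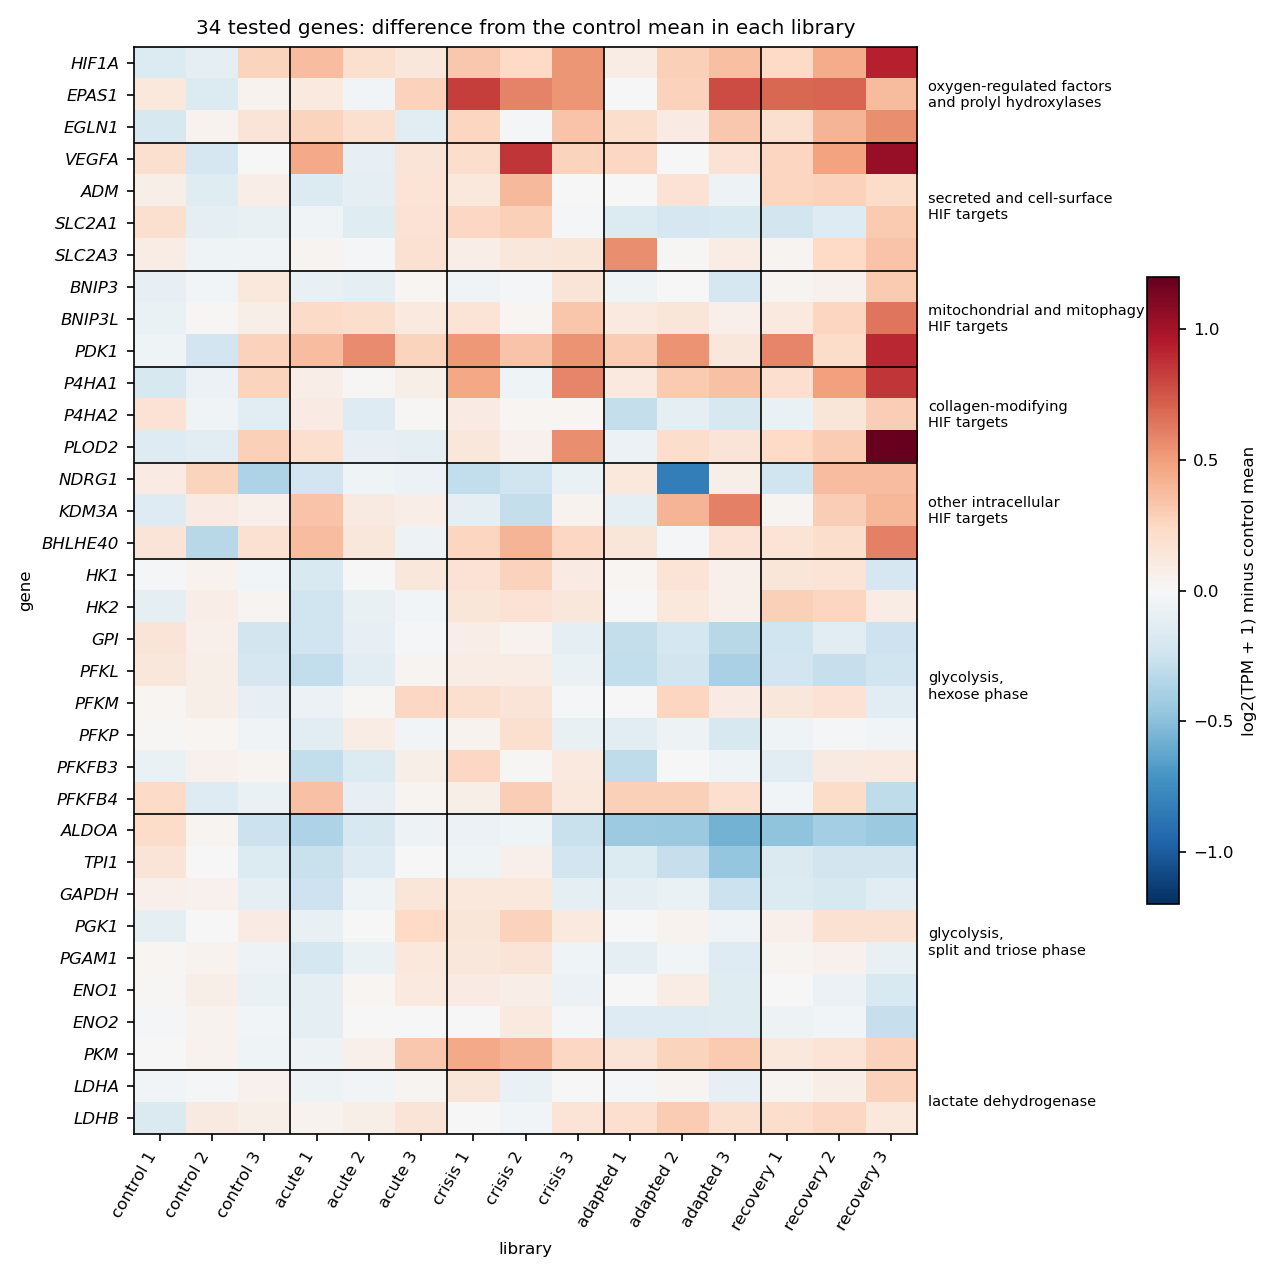
Each cell shows log2(TPM + 1) of a gene in one library minus its control mean, for the 34 tested genes (vertical axis, by role) in the 15 libraries (horizontal axis). Recovery 3 holds the deepest red for PLOD2, VEGFA, HIF1A, PDK1 and P4HA1, while ALDOA is blue in all adapted and recovery libraries.

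Among the enzymes of the hexose phase, hexokinase 1 made up most of the summed TPM of HK1 and HK2, with HK2 at 7.3% to 9.83%. HK2 (chr2:74834127-74893359), the inducible isozyme, read 11.4, 13.2 and 12.7 TPM in control, 10.4, 11.6 and 12.1 TPM in acute, 13.8, 14.1 and 13.8 TPM in crisis, 12.4, 13.7 and 12.9 TPM in adapted and 15.3, 15.0 and 13.3 TPM in recovery libraries. Crisis and recovery libraries lay just above the highest control. Its log2 fold change in recovery was 0.21 (SE 0.10, adjusted p = 0.173), and 0.17 after GC correction. HK1 ranged from 122 to 170.0 TPM, lowest in recovery 3.

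GPI (chr19:34359480-34402413), which turns glucose 6-phosphate into fructose 6-phosphate, read 161.5, 152 and 125 TPM in control, 123, 135 and 143 TPM in acute, 153, 149.7 and 134 TPM in crisis, 119, 125 and 115 TPM in adapted and 123, 133 and 122 TPM in recovery libraries. Control 3 lay within the range of the adapted and recovery libraries, and the other 2 control libraries lay above it. Its log2 fold change was -0.28 in adapted (SE 0.10, adjusted p = 0.142) and -0.18 there after GC correction.

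PFKL (chr21:44300051-44327376), the liver-type phosphofructokinase, read 47.9, 45.8 and 37.7 TPM in control, 35.3, 39.9 and 44.7 TPM in acute, 46.4, 46.4 and 41.2 TPM in crisis, 35.4, 37.2 and 33.1 TPM in adapted and 37.1, 35.8 and 36.7 TPM in recovery libraries. All adapted and recovery libraries were below all control libraries. PFKL has the highest GC content of the tested members, 64%, and its log2 fold change in adapted against control was -0.30 as deposited (SE 0.10, adjusted p = 0.142) and -0.04 after GC correction.

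The platelet-type PFKP carried 65% to 70.2% of the phosphofructokinase message and PFKM, the muscle type, 18% to 22.7%. PFKP ranged from 194 to 254 TPM and PFKM from 55.8 to 73.3 TPM. The regulators PFKFB3 and PFKFB4, which set the level of the activator fructose 2,6-bisphosphate, ranged from 11.2 to 17.0 TPM and from 16.1 to 26.1 TPM. PFKFB4 took 51.2% to 69.8% of their sum, lowest in recovery 3 and highest in acute 1.

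ALDOA, the aldolase that splits fructose 1,6-bisphosphate, opens the triose phase and came closest to the threshold. ALDOA (chr16:30064164-30070457) read 1014, 886.5 and 727 TPM in control, 673, 758 and 832 TPM in acute, 828, 839.9 and 721 TPM in crisis, 643, 635 and 587 TPM in adapted and 622, 652 and 636 TPM in recovery libraries. All adapted and all recovery libraries were below all control libraries, and adapted libraries were below acute ones as well. The log2 fold change was -0.48 in adapted (SE 0.11, adjusted p = 0.0534) and -0.45 in recovery against control (SE 0.11, adjusted p = 0.0515). After GC correction these were -0.32 (adjusted p = 0.0525) and -0.29 (adjusted p = 0.0787). Without control 3, its lowest control library, the adjusted p of ALDOA in recovery was 0.0134, the lowest of any member in any alternative. Without recovery 3 that adjusted p was 0.177, with a log2 fold change of -0.45. Within control cells the spread was wide, with an SD of 144 TPM against 30.4 TPM in adapted and 14.9 TPM in recovery cells. ALDOC, the brain isozyme, gave at most 0.2% of the summed TPM of ALDOA and ALDOC.

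TPI1, which interconverts the triose phosphates, had means of 1676 TPM in control, 1360 TPM in adapted and 1445 TPM in recovery cells, with a log2 fold change in adapted of -0.30 (adjusted p = 0.143) that was -0.21 after GC correction. GAPDH, often used as a reference gene, was the most abundant member and ranged from 5618 to 7390 TPM, with means of 6710 TPM in control and 5976 TPM in recovery cells. The GAPDH log2 fold change in recovery against control was -0.17 (adjusted p = 0.282), and -0.06 after GC correction. PGK1 ranged from 359 to 469 TPM, PGAM1 from 629.8 to 813 TPM and ENO1 from 1699 to 2091 TPM, a ratio of highest to lowest of 1.23 for ENO1 that was the smallest of the 34. ENO2, the neuronal enolase, took 3.86% to 4.71% of the summed TPM of ENO1 and ENO2. Without a stated strand setting, reads of TPI1 and of its overlapping neighbour SPSB2, of PFKM and SENP1, of P4HA2 and its neighbours PDLIM4 and SLC22A4 (53.8 TPM together on average), of BNIP3L and PNMA2, and of HIF1A and HIF1A-AS2 cannot be told apart where they overlap. GAPDH has 62 pseudogene entries here, whose summed level reached 0.279% of its own.

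PKM (chr15:72199029-72231819), the pyruvate kinase that makes pyruvate and ATP, read 2829, 2900 and 2726 TPM in control, 2708, 2944 and 3519 TPM in acute, 3851, 3736 and 3346 TPM in crisis, 3135, 3397 and 3508 TPM in adapted and 3079, 3159 and 3422 TPM in recovery libraries. Every crisis, adapted and recovery library was above every control library, while acute libraries spanned the gap. The log2 fold change in crisis was 0.37 (SE 0.10, adjusted p = 0.196) and 0.33 after GC correction (adjusted p = 0.0956). In adapted against control the PKM value was 0.25 (adjusted p = 0.17), and 0.34 after GC correction (adjusted p = 0.0666). TPM per gene does not separate its M1 and M2 isoforms.

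LDHA and LDHB are the lactate dehydrogenase subunits, LDHA favouring lactate production. LDHB (chr12:21635342-21757857) read 1145, 1388 and 1357 TPM in control, 1327, 1356 and 1437 TPM in acute, 1294, 1265 and 1448 TPM in crisis, 1487, 1599 and 1478 TPM in adapted and 1492, 1530 and 1413 TPM in recovery libraries. Adapted and recovery libraries were all above control libraries. The log2 fold change of LDHB in adapted was 0.23 (SE 0.08, adjusted p = 0.153), and 0.11 after GC correction. LDHA ranged from 1661 to 2163 TPM, highest in recovery 3, and its share of the summed message of both was 58% in control (SD 2.2, n = 3), 53.5% in adapted (SD 0.715, n = 3) and 56.9% in recovery cells (SD 3.08, n = 3).

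**Figure D2:**
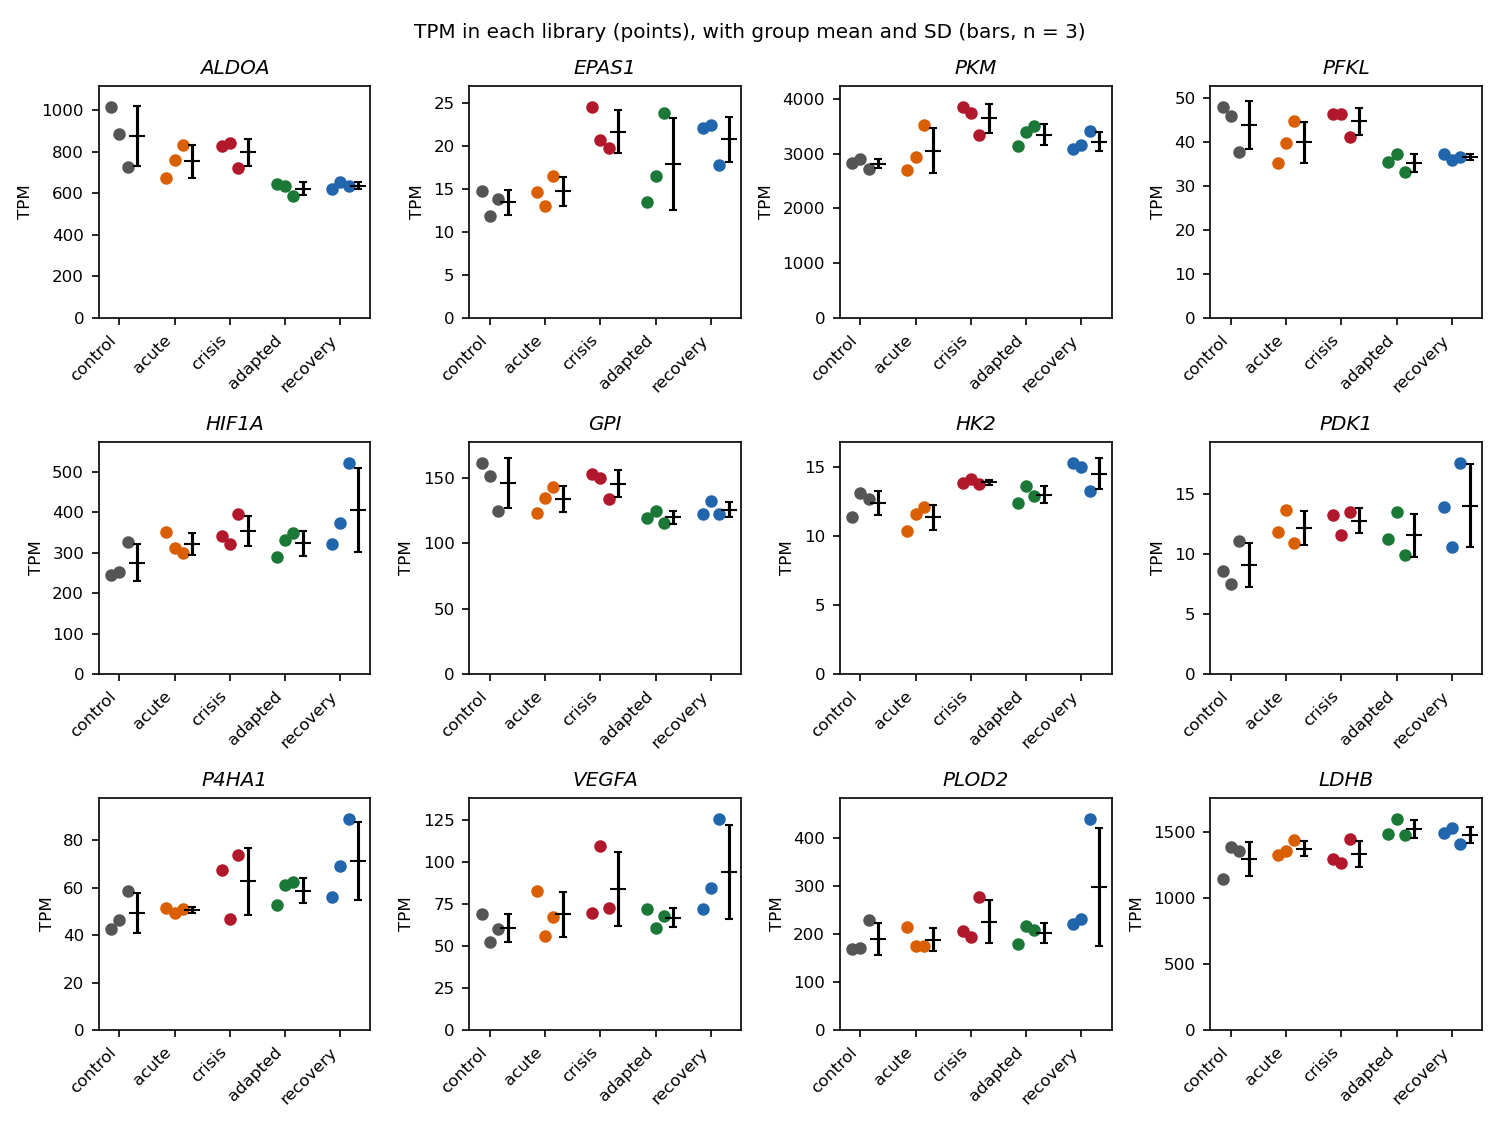
Points give TPM in each library for the 12 genes with the smallest p across the 5 groups, and the bars give the mean and SD of each group (n = 3), with vertical axes in TPM starting at 0. Recovery 3 stands above the other libraries for HIF1A, VEGFA and PLOD2 and not for ALDOA or PKM.

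**Figure D3:**
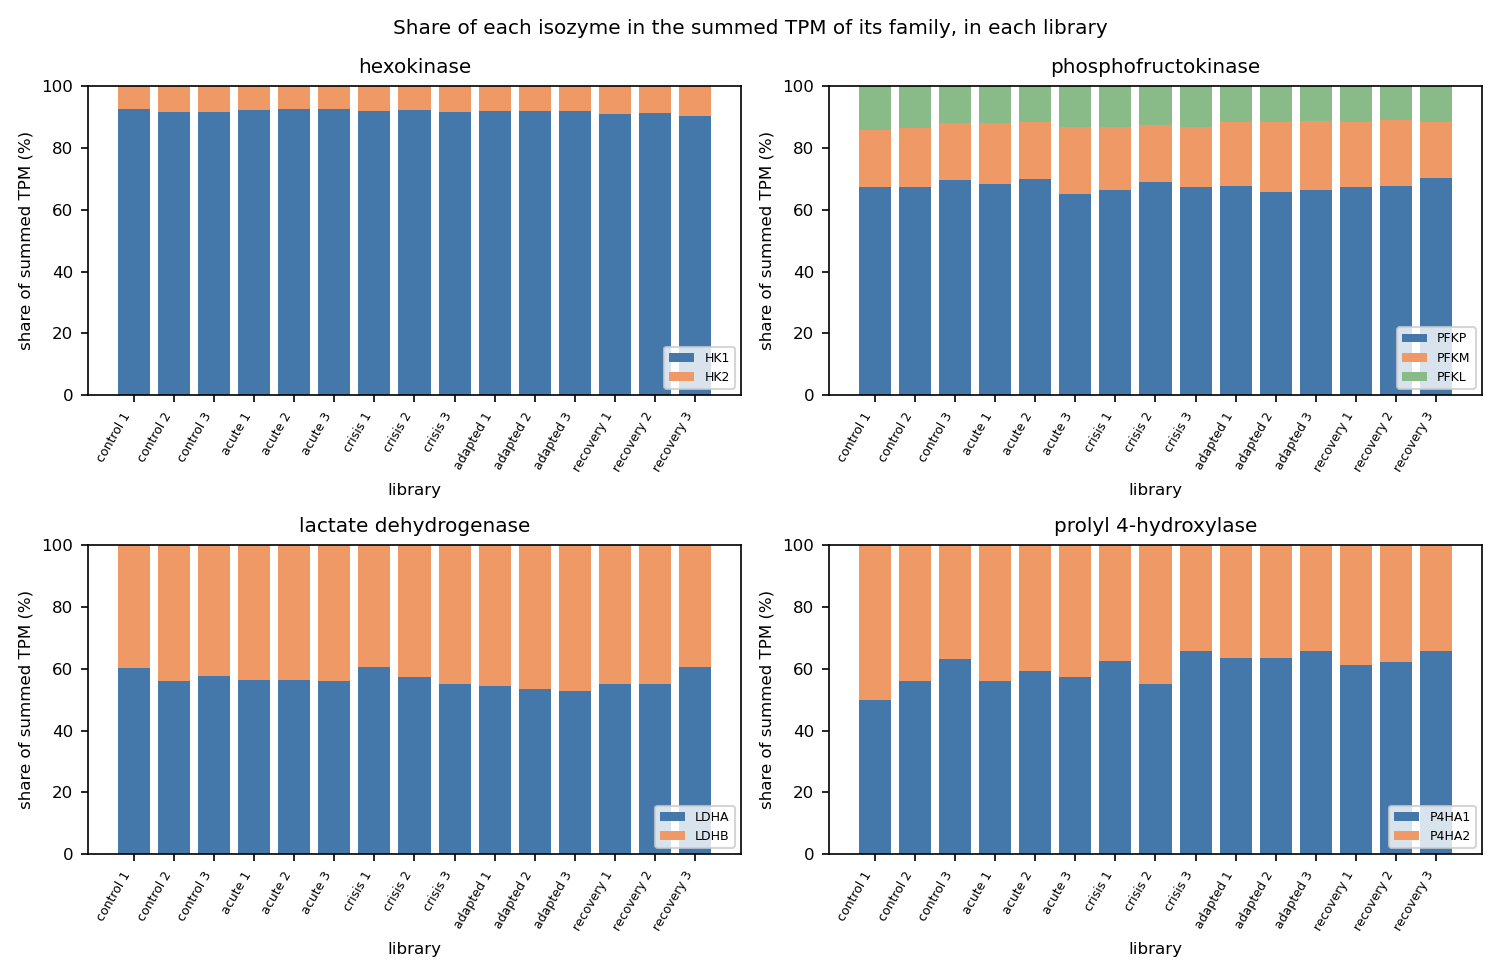
Stacked bars give the share of each isozyme in the summed TPM of the isozymes drawn for its family (vertical axis, percent) in each of the 15 libraries. HK2 stays between 7.3% and 9.83% of HK1 and HK2 together, while LDHA ranges from 52.9% to 60.5% of LDHA and LDHB together.

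Counted over the 34 tested genes, in acute against control 16 had a higher and 18 a lower mean log2 level, with a median log2 fold change of -0.003 beside 0.06 over all tested genes. At an adjusted p of 0.01 limma called 0 of them (0.049% of all tested genes), and below 0.05 unadjusted it gave 1 with a higher mean (background 7.52%) and 0 with a lower mean (background 1.67%). That gene was PDK1.

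In crisis against control 30 of 34 were higher and 4 lower, with a median of 0.12 beside 0.08 over all genes, of which 69.9% were higher. Limma called 0 (background 0.0392%), and an unadjusted p under 0.05 was reached by 5 with higher means and 0 with lower means (backgrounds 9.32% and 1.83%). The 5 genes are HIF1A, EPAS1, VEGFA, PDK1 and PKM. With GC correction 4 were higher at that level (11.8%, against 5.51% of all tested genes).

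For adapted against control 18 were higher and 16 lower, with a median of 0.05 beside 0.05 over all genes. Limma called 0 (background 0.049%), and 3 higher (EPAS1, PKM and LDHB) and 4 lower (GPI, PFKL, ALDOA and TPI1) at an unadjusted p under 0.05, beside backgrounds of 11.4% and 9.01%. Rescaled by median-of-ratios factors, 2 were higher and 7 lower, beside 7.91% and 13.1% of all tested genes. In adapted against acute 0 were called (background 0.0196%), and below 0.05 unadjusted there were 0 higher and 1 lower, ALDOA (backgrounds 1.36% and 4.89%).

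Recovery against control gave the largest count of genes with higher means at an unadjusted p under 0.05. Of the 34, 23 were higher and 11 lower, while 62.6% of all tested genes were higher. The median was 0.14 beside 0.08 over all genes, and 0 of the 34 were called (background 0.0392%). At an unadjusted p under 0.05, 12 were higher (35.3%, background 19.7%) and 3 lower (8.82%, background 8.88%). The 12 were HIF1A, EPAS1, EGLN1, VEGFA, ADM, BNIP3L, PDK1, P4HA1, PLOD2, BHLHE40, HK2 and LDHB, and the 3 were GPI, PFKL and ALDOA. With median-of-ratios rescaling the split was 8 higher and 6 lower, beside 11% and 15% of all tested genes. Without recovery 3 the higher count was 6 of 34 (17.6%, against 10.5% of all tested genes), and with GC correction it was 7 of 34 (20.6%, against 7.76%). For recovery against adapted 0 were called (background 0.0294%), and 4 had higher and 0 had lower means with an unadjusted p under 0.05 (backgrounds 4.98% and 2.06%), namely VEGFA, BNIP3, P4HA2 and PLOD2. Without recovery 3 the higher count was 0 (against 2.53% of all tested genes). With GC correction 6 were higher (17.6%, against 5.66%) and 1 lower (2.94%, against 5.44%).

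**Figure D4:**
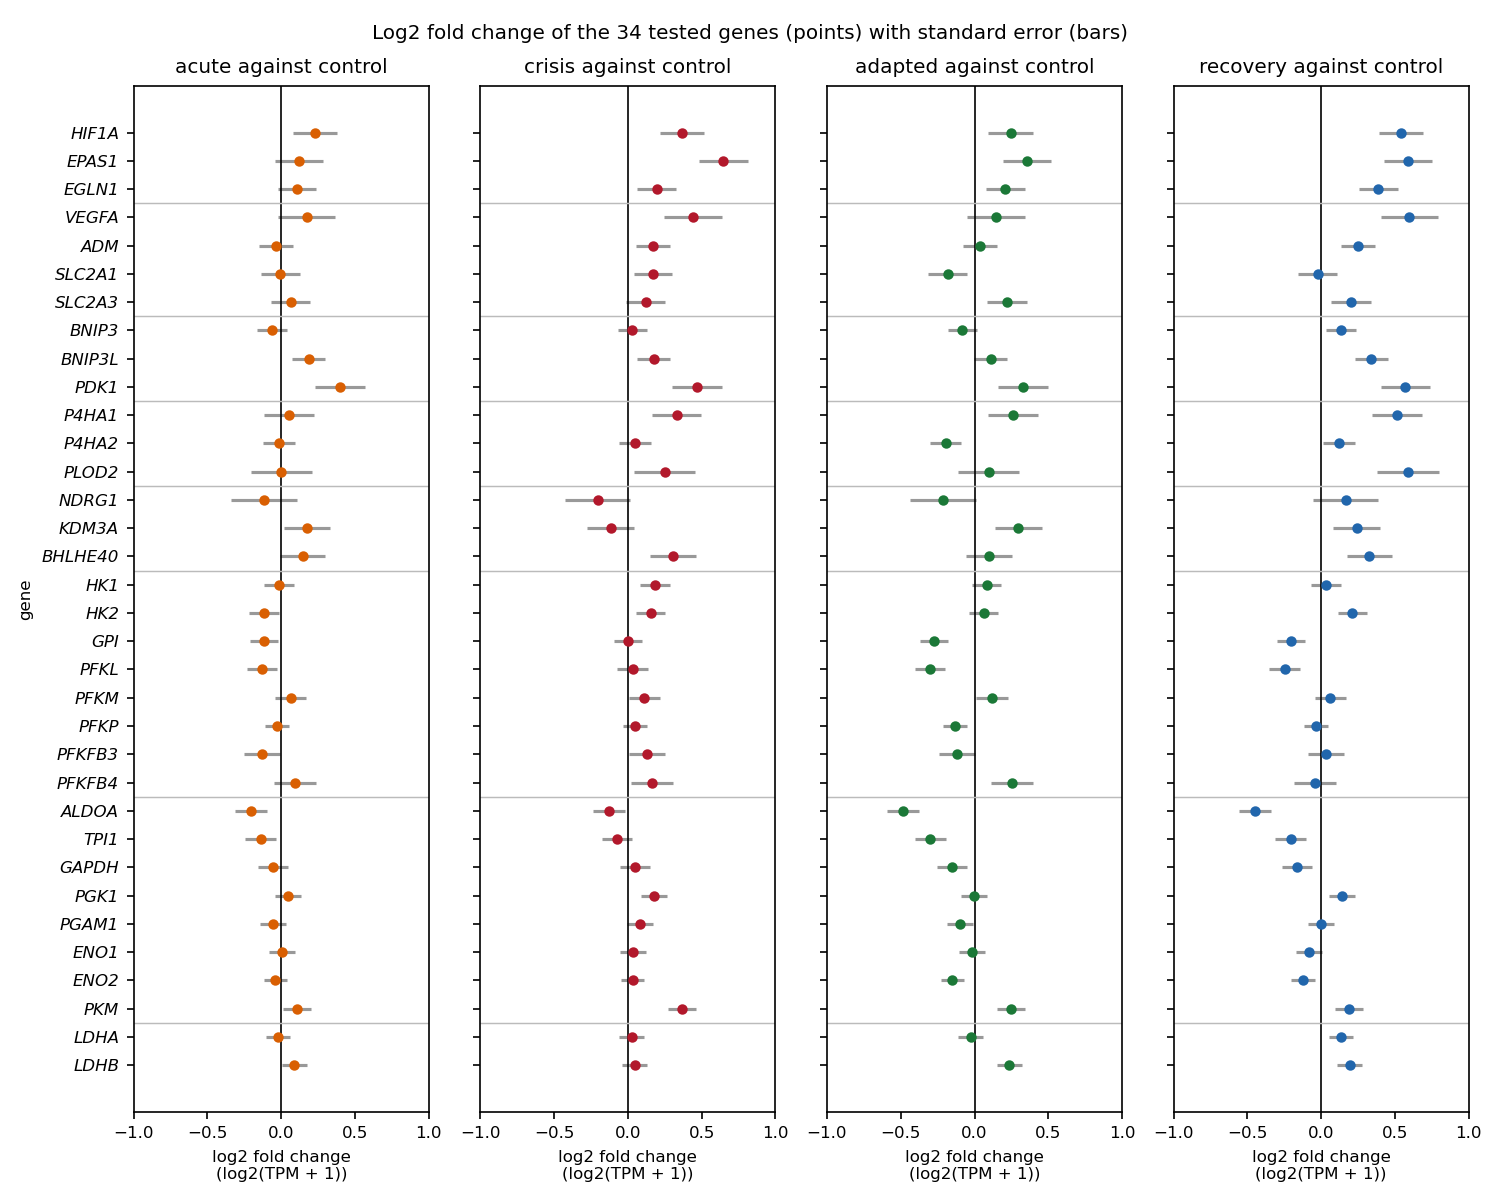
Points give the log2 fold change on the log2(TPM + 1) scale (horizontal axis) of each of the 34 tested genes (vertical axis) in acute, crisis, adapted and recovery cells against control, and bars give its standard error. The comparisons share their control libraries, and no gene passed an adjusted p of 0.01 in any panel.

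In the test across the 5 groups 0 of 34 were called (background 0.0687%) and 10 had an unadjusted p under 0.05 (29.4%, background 17.1%), with adjusted p-values from 0.109 for ALDOA upward. The median ratio of the highest to the lowest library was 1.5 for the members beside 1.53 over all tested genes. Recovery 3 was the highest library for 12 of the 34 (35.3%, background 23.3%). The part of recovery 3 and of GC content in these values was measured only by leaving out that library and by the correction.

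GC content moved with these differences. The Spearman correlation of GC content with the log2 fold change in recovery against control was -0.697 across the 34 genes and -0.7 across all tested genes, given as a description since genes are not independent. All 10 members with a GC content below 45% had higher means in recovery than in control (median log2 fold change 0.36), against 13 of the 24 others (median 0.03). After GC correction these medians were 0.16 and 0.05, and the correlation across the 34 was -0.338. VEGFA, EPAS1 and ADM were at least as high after the correction as before it.

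**Figure D5:**
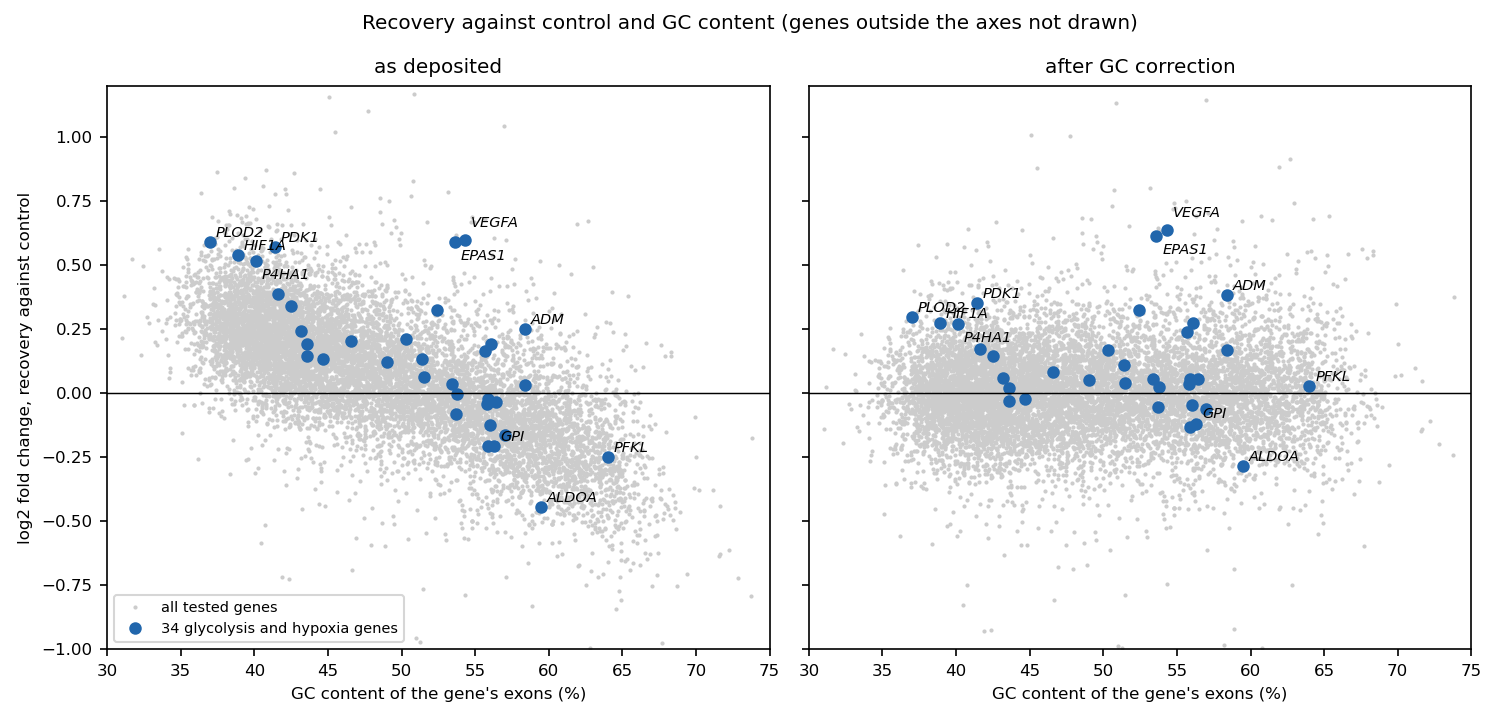
Each point is a gene, with its exon GC content in percent on the horizontal axis and its log2 fold change in recovery against control on the vertical axis, as deposited (left) and after GC correction (right), with the 34 genes in blue over all tested genes in grey. The slope across all genes on the left is absent on the right, where VEGFA and EPAS1 remain near 0.6 and PFKL lies near 0.

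Of 111 further genes of these pathways, listed from general knowledge, 76 were tested and 0 passed an adjusted p of 0.01 in any comparison. The HIF machinery (13 tested) held ARNT, the constant partner of both alpha subunits. ARNT (chr1:150809713-150876708) read 16.2, 14.8 and 22.3 TPM in control, 30.3, 28.8 and 30.9 TPM in acute, 36.5, 25.8 and 32.9 TPM in crisis, 28.6, 39.3 and 34.3 TPM in adapted and 17.6, 18.8 and 20.6 TPM in recovery libraries. All libraries with doxycycline lay above all libraries without it. The log2 fold change of ARNT was 0.91 in adapted against control (SE 0.15, adjusted p = 0.0138), 0.11 in recovery against control (adjusted p = 0.643) and -0.80 in recovery against adapted (adjusted p = 0.0675). After GC correction these were 0.86, 0.02 and -0.84. EGLN2, another HIF hydroxylase, had means of 29.4 TPM in control and 20.6 TPM in adapted cells (log2 fold change -0.48, adjusted p = 0.105, and -0.28 after GC correction).

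Of 33 other HIF targets tested, 7 had higher and 2 had lower means in recovery against control at an unadjusted p under 0.05. The backgrounds were the same 19.7% and 8.88%. Of the 33, 17 (51.5%) had their highest library in recovery 3, against 23.3% of all tested genes. MIF, a cytokine, had means of 479.9 TPM in control, 332 TPM in adapted and 309 TPM in recovery cells (log2 fold change in recovery -0.63, adjusted p = 0.0345, and -0.27 after GC correction). AK4, a mitochondrial adenylate kinase, had means of 8.84 TPM in control, 5.28 TPM in adapted and 9.10 TPM in recovery cells (adapted against control, log2 fold change -0.67, adjusted p = 0.0659, and -0.79 after GC correction).

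Around the glycolytic core, SLC16A3, the lactate exporter MCT4, had means of 179 TPM in control, 130 TPM in adapted and 135 TPM in recovery cells (adapted against control, log2 fold change -0.45, adjusted p = 0.0659, and -0.16 after GC correction). MPC2, a subunit of the mitochondrial pyruvate carrier, had means of 49.0 TPM in control and 36.4 TPM in adapted cells (log2 fold change -0.42, adjusted p = 0.0695, and -0.53 after GC correction). TIGAR, a p53 target that slows glycolysis, had means of 24.5 TPM in control and 34.2 TPM in acute cells (log2 fold change 0.47, adjusted p = 0.289, and 0.34 after GC correction). Among the 5 other glycolysis genes tested, PGM1, which links glycogen to glucose 6-phosphate, had means of 40.3 TPM in control and 33.6 TPM in adapted cells (log2 fold change -0.25, adjusted p = 0.125, and -0.27 after GC correction).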

How the data were processed

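RNA-seq was analysed in 15 libraries. Single-end reads were quantified by the authors with Kallisto (hg38), and the deposited TPM values are per gene, beside the authors' DESeq2 fold changes and adjusted p-values, which were not used. No strand setting is given in the sources that were used. TPM keeps no depth, so no counting interval was computed. The 45 pseudoautosomal copies were dropped from 60603 entries. Columns were assigned to samples by the labels. Genes averaging 5 TPM or more (10196) were fitted on log2(TPM + 1) with limma 3.58.1 in R 4.3.3 (lmFit, contrasts.fit, eBayes with trend), with the 5 groups and all 15 libraries, 2-sided, Benjamini-Hochberg adjusted. Positions and GC content came from GENCODE release 44, and GC correction removed a loess (span 0.3) from each library for 10185 genes. The fit was tested on simulated data. Tables were handled in pandas 2.3.3.

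The genes and the lists were chosen with earlier results of these data known. Genes past an adjusted p of 0.05, or where fewer than 12 passed the 12 with the smallest p across the groups, have every library's value in the text, and the others have means or ranges. Of the further pathway lists up to 3 genes with the smallest p, and ARNT, were eligible to be named. Some of these are not reported here. Alternatives were pseudocounts of 0.1 and 5, filters at a mean of 1 TPM and none, median-of-ratios rescaling, GC correction, a replicate block with and without it, a threshold of 0.05, fits to 2 groups, and each library left out.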

Additional observations from a re-analysis of the deposited data

How the results depend on the processing

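The count of members past an adjusted p of 0.01 was 0 in every comparison under every alternative run, the replicate block included, and from 0 to 0 with each library left out. At an adjusted p of 0.05 the count by limma was 0 in all comparisons. In recovery against control it was 2 with the replicate block (ALDOA and HIF1A, 5.88% against 2.07% of all tested genes), 1 with median-of-ratios rescaling (ALDOA, 2.94% against 2.45%), 3 without recovery 1 (8.82% against 2.88%) and 9 without control 3 (26.5% against 16.2%). In adapted against control it was 1 with that rescaling (ALDOA, adjusted p = 0.0385, 2.94% against 1.68%) and 3 without control 3 (ALDOA, GPI and PFKL, 8.82% against 4.59%), and across the 5 groups 1 without control 3 (ALDOA, 2.94% against 0.265%). Leaving out acute 1 gave ALDOA in adapted and in recovery against control (2.94%, against 0.902% and 2.25% of all tested genes). Leaving out acute 3 (against 0.785% and 1.32%) or crisis 3 (against 0.863% and 1.92%) gave ALDOA in both as well. Leaving out adapted 3 gave EPAS1 in recovery against control (2.94% against 0.981%). Of 30 same-numbered pairs of libraries, 11 correlated above 0.1, over a range of -0.437 to 0.34. Differently numbered pairs were not set beside them, so these values cannot tell whether replicate numbers pair the libraries.

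In some settings the median log2 fold change of the members was counted as moved from its main value. Of these, 0.104 in crisis and 0.0247 in adapted against control lay within the ranges with each library left out, given below. In acute against control it was -0.0714 with median-of-ratios rescaling. In crisis against control it was 0.104 with a pseudocount of 5, 0.0800 without a filter, 0.0447 with that rescaling and 0.0714 with GC correction, alone or with the replicate block. In adapted against control it was -0.000923 without a filter, 0.00613 with that rescaling and 0.0247 with GC correction, alone or with the block. In recovery against control it was 0.057 with GC correction, alone or with the block. With that rescaling it was 0.0617 there, which did not count as moved. With each library left out, the median ran from -0.0361 to 0.0517 in acute against control, 0.0942 to 0.124 in crisis against control, 0.0103 to 0.068 in adapted against control, 0.111 to 0.185 in recovery against control, -0.0346 to 0.0203 in adapted against acute and 0.0888 to 0.149 in recovery against adapted. The cause of these shifts was not tested. The rescaling moved the median of all genes by under 0.1 in each comparison. TPM keeps no depth, and 3 libraries a group limit the precision.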
